A study of Mus musculus with 4 samples.

Results

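The CXC chemokine ligand genes considered were Cxcl9, Cxcl10, Cxcl11, Cxcl2 and Cxcl16, taken by symbol from a table of 13976 mouse genes. All 5 were in the table. Expression had been measured by bulk RNA sequencing in 4 myeloid populations from EO771 tumours, which are mouse mammary tumours grown from a cell line. The populations were a dendritic cell (DC) population labelled CD103intCD11b+DC (CD103int DC below), the CD103+cDC1, the CD11b+cDC2 and macrophages, with 1 library each. The study's title concerns DC that accumulate under treatment with heterodimeric interleukin-15 (hetIL-15). Strain, age, sort gates, mice and cells behind a library, and the treatment of these particular tumours are not stated in the labels. Values are CPM (counts per 1000000 reads) as scaled by the authors, and a bracket after a level or ratio gives its 95% interval from counting error alone. With 1 library per population no difference could be set against replicate error, and no test was run. In such bulk samples, fewer cells of a producing type and less RNA per cell cannot be told apart.

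CXC chemokines are small secreted proteins that steer leukocytes through receptors on the responding cell. CXCL9, CXCL10 and CXCL11 are induced by interferons and share the receptor CXCR3 of activated T cells and NK cells, and DC and macrophages of tumours are known sources of CXCL9 and CXCL10. CXCL2 acts through CXCR2 and draws neutrophils, and its gene is a classical target of NF-κB downstream of Toll-like and cytokine receptors. CXCL16 is made as a membrane protein that also binds oxidised lipoprotein, is shed by the proteases ADAM10 and ADAM17, and attracts cells that carry CXCR6.

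The libraries held between 44425908 (cDC1) and 63817502 (macrophage) estimated reads. The 10 macrophage marker genes summed to 2945 CPM in CD103int DC, 864 CPM in cDC1, 4201 CPM in cDC2 and 3986 CPM in macrophages, and 10 of 10 were lowest in cDC1. Of them, 5 were highest in macrophages, 4 in cDC2 and 1 in CD103int DC, so these markers did not set the macrophage library apart from cDC2. Of 10 cDC1 markers, 8 were highest in the library labelled cDC1. Of 8 cDC2 markers, 1 was highest in the library labelled cDC2 and 4 in that labelled cDC1, so these markers did not set the cDC2 library apart. The number of genes listed at 0 was 10 in the CD103int DC, 454 in the cDC1, 19 in the cDC2 and 20 in the macrophage library. The macrophage library was named in the table with a prefix of its own. If that prefix stands for a batch, batch and population cannot be told apart wherever macrophages are compared.

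The cDC1 library had the lowest level of 5 of 5 ligand genes, while the highest level fell in a different library from gene to gene. Cxcl9 and Cxcl16 peaked in cDC2, Cxcl10 and Cxcl11 in macrophages, and Cxcl2 in CD103int DC. Of the 8724 genes that reached 10 CPM in 1 library or more, 38.7% were also lowest in cDC1. The macrophage markers were lowest in the same library, and their part in the low ligand levels of cDC1 was not tested.

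**Figure D1:**
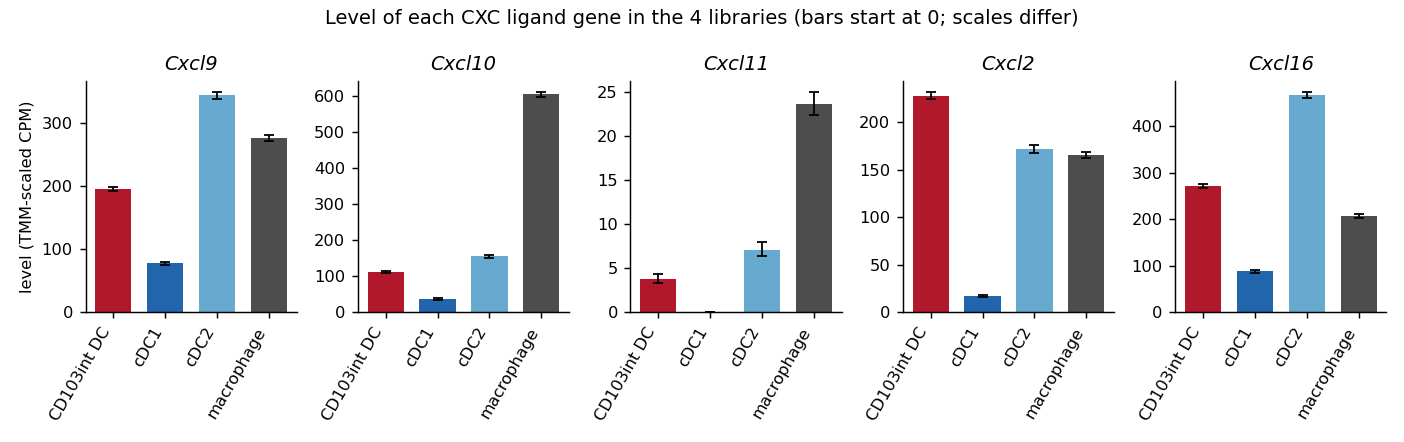
Level of each ligand gene (TMM-scaled CPM, vertical axis from 0, with its own scale per gene) in the CD103int DC, cDC1, cDC2 and macrophage libraries. Each bar is 1 library and each error bar the 95% counting interval, and the cDC1 bar is the lowest in every panel, with Cxcl11 at 0.

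Cxcl9, the ligand of CXCR3 most closely tied to interferon gamma, stood at 195 (192 to 199) CPM in CD103int DC, 77.2 (74.8 to 79.7) in cDC1, 343 (338 to 349) in cDC2 and 276 (272 to 281) in macrophages. The order was cDC2, macrophages, CD103int DC and cDC1, and each step exceeded the counting error. The smallest step was that of cDC2 over macrophages, 1.24-fold (1.22 to 1.27). Cxcl9 (ENSMUSG00000029417.9) lies on chromosome 5 from 92321347 to 92328079, on the minus strand, in GRCm38, and its longest annotated transcript has 4 exons.

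Cxcl10, a CXCR3 ligand induced by type I interferon as well as interferon gamma, stood at 112 (109.6 to 115) CPM in CD103int DC, 36.8 (35.1 to 38.5) in cDC1, 155 (152 to 159) in cDC2 and 605 (598 to 611) in macrophages. The macrophage library thus stood apart from the 3 DC libraries, the nearest of which, cDC2, was lower by 3.89-fold (3.79 to 3.99). Cxcl10 (ENSMUSG00000034855.13, chromosome 5, 92346638 to 92348889, minus strand) lies wholly within the span of Art3, an ADP-ribosyltransferase family gene on the plus strand. Art3 stood at 0.995 CPM in CD103int DC, 0.571 in cDC1, 1.30 in cDC2 and 3.12 in macrophages. Whether the authors' counting used strand is not stated, and the part of overlapping reads in the Cxcl10 and Cxcl11 levels was not tested.

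Cxcl11, the third CXCR3 ligand, was the lowest of the 5 in every library, per kilobase of transcript as well, with 3.81 (3.33 to 4.35) CPM in CD103int DC, a listed 0 in cDC1, 7.11 (6.37 to 7.92) in cDC2 and 23.7 (22.4 to 25.0) in macrophages. Its order over the libraries was that of Cxcl10. The reference annotation does not class it as an ordinary coding gene. GENCODE lists it as a polymorphic pseudogene and RefSeq as a transcribed pseudogene, so that these values are transcript levels and say nothing of a protein. Cxcl11 (ENSMUSG00000060183.6, chromosome 5, 92359544 to 92365485, minus strand) also lies within Art3 and overlaps the processed pseudogene Gm2673.

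Cxcl2, the neutrophil attractant, stood at 228 (224 to 232) CPM in CD103int DC, 17.1 (16.0 to 18.3) in cDC1, 172 (168 to 176) in cDC2 and 165 (162 to 169) in macrophages. It was the only one of the 5 with its highest level in CD103int DC, and, of the 4 above 0 in cDC1, the one furthest below the next library there, by 9.64-fold (8.99 to 10.4) against macrophages. In the authors' scaling, the cDC2 and macrophage levels were the closest neighbours of any of these genes, at a ratio of 1.04 (1.01 to 1.07). Such a gap lies beyond counting error in that scaling but has no replicate behind it. With median-of-ratios scaling, the difference of log2(CPM + 1) was 0.03, with a counting error of 0.04 either way. With equal totals it was 0.32, larger in size than that of Cxcl9 between CD103int DC and macrophages (-0.24). Cxcl2 (ENSMUSG00000058427.10) lies on chromosome 5 from 90903871 to 90905938 on the plus strand, in the cluster of CXCR2 ligand genes, with 3 exons in its longest transcript.

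Cxcl16, the membrane-bound ligand of CXCR6, stood at 273 (268 to 277) CPM in CD103int DC, 87.6 (85.0 to 90.2) in cDC1, 468 (462 to 474) in cDC2 and 207 (204 to 211) in macrophages. CD103int DC and cDC2 were above macrophages, and cDC1 was below them. Cxcl16 (ENSMUSG00000018920.11, 5 exons in the longest transcript) is the only one off chromosome 5, on chromosome 11 from 70453983 to 70459984, minus strand. It shares 552 bases with Zmynd15 on the plus strand, a gene of 19.4 CPM in CD103int DC, 7.35 in cDC1, 52.1 in cDC2 and 16.4 in macrophages, also highest in cDC2. Reads in the shared stretch may have been counted for either gene, and this was not tested.

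Upstream sequence was matched for 3 of the 5 genes, which peaked in 3 different libraries. The RefSeq promoter table (GRCm38.p6) gave the 250 bases before the annotated start of Cxcl9 (chr5:92328080-92328329, minus strand), Cxcl10 (chr5:92348890-92349139, minus strand) and Cxcl2 (chr5:90903649-90903898, plus strand). They are shown 5′ to 3′ because interferon and NF-κB elements near the start are the known control sites of this family, and capitals mark matches to the motifs searched. The window of Cxcl2 ends within the GENCODE span, since RefSeq places the start of that gene further downstream.

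Cxcl9: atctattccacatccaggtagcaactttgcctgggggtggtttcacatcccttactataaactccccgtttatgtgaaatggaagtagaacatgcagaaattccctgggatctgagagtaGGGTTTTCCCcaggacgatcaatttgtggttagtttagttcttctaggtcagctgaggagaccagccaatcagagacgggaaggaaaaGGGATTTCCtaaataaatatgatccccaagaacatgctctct

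Cxcl10: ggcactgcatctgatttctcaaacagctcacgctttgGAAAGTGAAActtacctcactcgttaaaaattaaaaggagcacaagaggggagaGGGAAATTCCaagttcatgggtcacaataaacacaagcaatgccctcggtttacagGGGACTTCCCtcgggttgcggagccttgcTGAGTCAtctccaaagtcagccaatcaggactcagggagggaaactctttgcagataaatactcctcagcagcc

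Cxcl2: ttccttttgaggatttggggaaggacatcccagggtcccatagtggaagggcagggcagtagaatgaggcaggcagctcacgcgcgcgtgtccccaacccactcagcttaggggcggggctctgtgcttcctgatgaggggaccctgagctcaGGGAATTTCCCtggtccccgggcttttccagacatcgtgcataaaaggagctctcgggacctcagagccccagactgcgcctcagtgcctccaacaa

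The motifs were searched on both strands. Letters written N stand for any base. The 10-base NF-κB form GGGANNNNCC matched 1 time in Cxcl9, 3 times in Cxcl10 and 2 times in Cxcl2, and 17.6% of 32817 promoter windows of the same length held it. The 9-base form GGGANTTCC matched 1 time each in Cxcl9 and Cxcl10, against 1.43% of windows. A single stretch can count more than once. GGGACTTCCC in Cxcl10, at -103 to -94 from the start, matched the 10-base form on both strands and the 9-base form, and the 2 matches in Cxcl2 overlap in the stretch from -97 to -87.

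The core of the interferon-stimulated response element (ISRE), GAAANNGAAA, matched in Cxcl10 alone of the 3 genes, as GAAAGTGAAA at -213 to -204, and 2.97% of all windows held it. The AP-1 motif TGANTCA also matched in Cxcl10 alone, at -74 to -68, against 6.75% of windows. The gamma-activated sequence TTCNNNGAA had 0 matches in the 3 windows and was held by 7.01% of all windows. These matches describe letters in a 250-base window and not binding. Elements with letters other than the forms searched were not looked for, so 0 matches does not show that an interferon element is absent. Cxcl11 and Cxcl16 are named only.

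**Figure D2:**
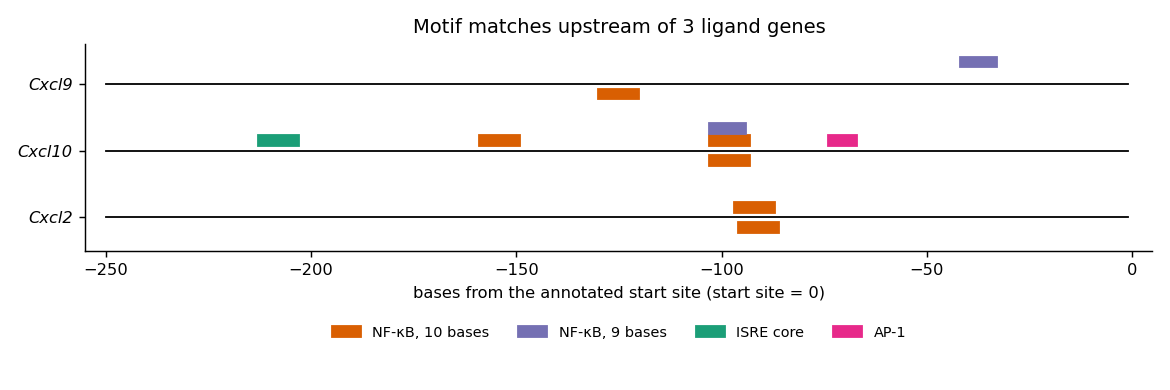
Positions of motif matches in the 250 bases before the annotated start of Cxcl9, Cxcl10 and Cxcl2 (horizontal axis in bases from the start site), with matches on the gene's strand above the line and on the other strand below it. Only Cxcl10 shows an ISRE core and an AP-1 match, and all 3 genes show the 10-base NF-κB form.

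Pairs of libraries were compared on the difference of log2(CPM + 1), which understates changes of low genes, and a gene was called when it differed by at least 2-fold with at least 10 CPM in the higher library. Between CD103int DC and cDC1, the ligand genes were higher in CD103int DC throughout. Cxcl2 was 13.3-fold (12.4 to 14.3) higher, Cxcl16 3.11-fold (3.01 to 3.22), Cxcl10 3.06-fold (2.90 to 3.22) and Cxcl9 2.53-fold (2.44 to 2.62). Cxcl11 reached 10 CPM in neither library and was listed at 0 in cDC1, so that no fold is given. Thus 4 of 5 genes were called higher and 0 lower, where 14.6% of 8443 genes were called in either direction, 9.16% higher and 5.46% lower. With totals made equal after leaving out ribosomal and mitochondrial entries, the split over all genes was 603 higher and 687 lower in place of 773 and 461, and the same 4 ligand genes were called. The median difference of the 5 was 1.63, against 0.03 over all genes tested, and the same 1.63 with Cxcl11 in cDC1 at the floor of 3 reads. At 4-fold, Cxcl2 alone was called, where 4.62% of genes were.

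Between CD103int DC and cDC2, no ligand gene was called, where 2.23% of 8119 genes were, 1.56% higher and 0.665% lower. Cxcl9 in CD103int DC was 0.568 (0.555 to 0.582) of its cDC2 level, Cxcl16 0.583 (0.571 to 0.595) and Cxcl10 0.723 (0.699 to 0.748). Cxcl11 stood at 0.536 (0.450 to 0.638) of its cDC2 level, with both libraries under 10 CPM. Cxcl2 ran the other way, 1.33-fold (1.29 to 1.36) higher in CD103int DC. The median difference was -0.75, against 0.02 over all genes tested, and 4 of the 5 genes were below 0, where 53.0% of all genes tested were above 0. The differences of Cxcl9, Cxcl16 and Cxcl11 were lower than those of all but 1.29%, 1.50% and 1.64% of the genes tested, although none reached 2-fold. At 4-fold, 0.209% of genes and 0 ligand genes were called.

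Between CD103int DC and macrophages, Cxcl10 and Cxcl11 separated from the other ligand genes. Cxcl10 in CD103int DC was at 0.186 (0.181 to 0.191) of the macrophage level and Cxcl11 at 0.161 (0.139 to 0.186). Cxcl9, although also a CXCR3 ligand, was at 0.707 (0.689 to 0.724), within 2-fold. Cxcl2 was 1.38-fold (1.34 to 1.42) and Cxcl16 1.31-fold (1.28 to 1.35) higher in CD103int DC. So 2 of 5 genes were called, both lower, where 12.7% of 8254 genes were called, 4.35% higher and 8.31% lower. With equal column totals the split over all genes turned, to 647 higher and 401 lower in place of 359 and 686, while the 2 ligand calls were the same. The median difference was -0.50, against -0.07 over all genes tested. Both ligand genes were also called at 4-fold, where 2.14% of genes were, except that Cxcl11 fell short with a pseudocount of 5 (-1.70).

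Between cDC1 and cDC2, the ligand genes were lower in cDC1. Cxcl2 in cDC1 was at 0.0998 (0.0929 to 0.107) of its cDC2 level, Cxcl16 at 0.187 (0.181 to 0.193), Cxcl9 at 0.225 (0.217 to 0.233) and Cxcl10 at 0.237 (0.225 to 0.249). Cxcl11, at 0 against 7.11 CPM, was below the minimum for a call. Thus 4 of 5 were called lower and 0 higher, where 16.8% of 8459 genes were called, 7.27% higher and 9.56% lower. Without ribosomal and mitochondrial entries the split over all genes was 870 higher and 662 lower in place of 615 and 809. The median difference of the 5 was -2.40, against -0.01 over all genes tested. All 4 were also called at 4-fold, where 5.93% of genes were, but Cxcl9 and Cxcl10 stood close to that limit. Cxcl10 fell short of it with equal totals (-1.96) and with a pseudocount of 5 (-1.94), and Cxcl9 (-1.95) and Cxcl10 (-1.87) did so without ribosomal and mitochondrial entries.

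Between cDC1 and macrophages, 5 of 5 were called lower, where 25.0% of 8468 genes were called, 9.21% higher and 15.8% lower. Cxcl10 in cDC1 was at 0.0608 (0.0579 to 0.0637) of the macrophage level, Cxcl2 at 0.104 (0.0965 to 0.111) and Cxcl9 at 0.280 (0.270 to 0.290). Cxcl11 was listed at 0 in cDC1, against 23.7 CPM in macrophages. Cxcl16 had the smallest difference, at 0.422 (0.408 to 0.437), and its call depended on the scaling: its log2 difference of -1.23 became -0.87 with equal column totals and -0.80 without ribosomal and mitochondrial entries. Over all genes those settings gave 1472 higher and 887 lower, and 1684 and 812, in place of 780 and 1339. The median difference of the 5 was -3.20, against -0.09 over all genes tested. At 4-fold, Cxcl10, Cxcl11 and Cxcl2 were called, where 8.15% of genes were.

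Between cDC2 and macrophages, the ligand genes went both ways. Cxcl16 was 2.25-fold (2.20 to 2.31) higher in cDC2, while Cxcl10 was at 0.257 (0.250 to 0.264) and Cxcl11 at 0.301 (0.265 to 0.339) of the macrophage level. Cxcl9 was 1.24-fold higher and Cxcl2 was 1.04-fold higher in cDC2, both within 2-fold. So 1 gene was called higher and 2 lower, where 7.79% of 8141 genes were called, 1.78% higher and 6.01% lower, or 352 higher and 230 lower with equal totals in place of 145 and 489. The median difference of the 5 was 0.05, against -0.09 over all genes tested. At 4-fold, 0 ligand genes and 0.811% of all genes were called.

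**Figure D3:**
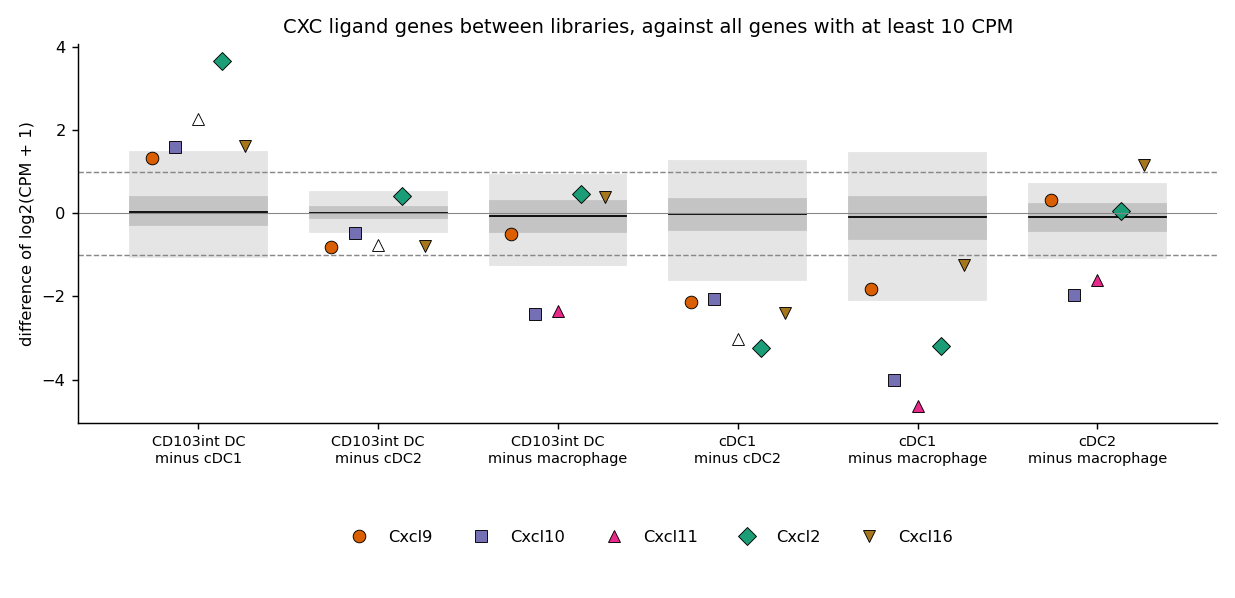
Difference of log2(CPM + 1) of each ligand gene in the 6 pairs of libraries (vertical axis, first library minus second), over grey boxes that hold the middle 50% (dark) and 90% (light) of all genes with at least 10 CPM, with a black line at their median. Dashed lines mark 2-fold, open symbols are genes under 10 CPM in both libraries, and all 5 genes lie above 0 for CD103int DC minus cDC1 and below 0 in both pairs that start with cDC1.

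Ratios of 2 ligand genes within a library do not depend on how libraries are scaled to each other. The ratio of Cxcl9 to Cxcl10 was 1.74 (1.68 to 1.79) in CD103int DC, 2.10 (1.99 to 2.22) in cDC1, 2.21 (2.15 to 2.27) in cDC2 and 0.457 (0.448 to 0.466) in macrophages. The 3 DC libraries therefore lay close together on this ratio and the macrophage library lay below 1. The ratio of Cxcl10 to Cxcl11 was 29.5 (25.7 to 33.9) in CD103int DC, 21.8 (19.6 to 24.5) in cDC2 and 25.5 (24.2 to 27.0) in macrophages, and could not be formed in cDC1. That ratio differed much less than the ratio of Cxcl9 to Cxcl10 did between the DC and the macrophage libraries.

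The ratio of Cxcl16 to Cxcl2 split the libraries in another way. It was 1.20 (1.17 to 1.23) in CD103int DC, 5.11 (4.74 to 5.51) in cDC1, 2.72 (2.65 to 2.80) in cDC2 and 1.25 (1.22 to 1.29) in macrophages. CD103int DC and macrophages thus had nearly the same ratio of the CXCR6 to the CXCR2 ligand gene, with intervals that overlapped at their edges, and cDC2 and cDC1 had more Cxcl16 for each unit of Cxcl2.

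**Figure D4:**
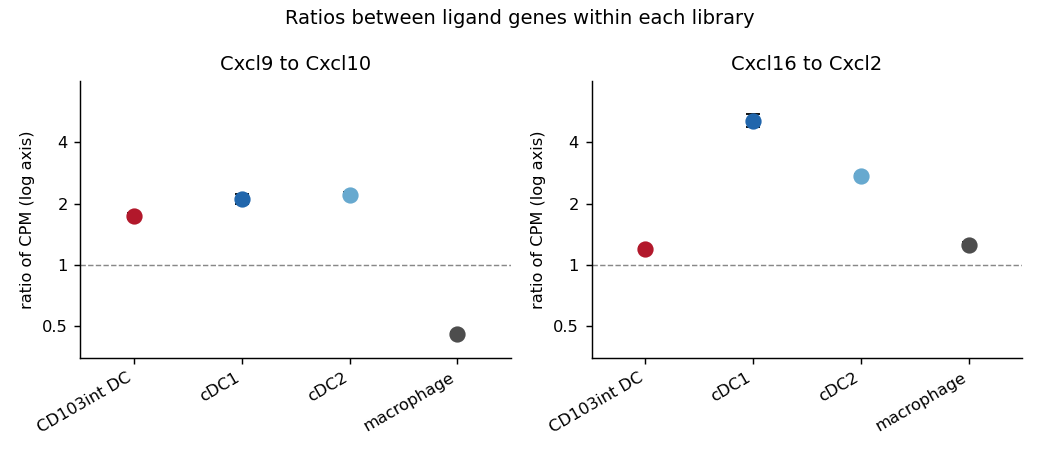
Ratio of Cxcl9 to Cxcl10 and of Cxcl16 to Cxcl2 in each library (log axis), with 95% counting intervals that are mostly smaller than the points. The macrophage library lies below 1 on the first ratio, at 0.457, with the 3 DC libraries between 1.74 and 2.21, and cDC1 lies highest on the second, at 5.11.

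Summed over the 5 genes, the ligand level was 812 CPM in CD103int DC, 219 in cDC1, 1145 in cDC2 and 1277 in macrophages. The CXCR3 ligands Cxcl9, Cxcl10 and Cxcl11 made up 311, 114, 506 and 905 CPM of it in the same order of libraries. Uncorrected for length, that was 38.4% of the sum in CD103int DC, 52.1% in cDC1, 44.2% in cDC2 and 70.8% in macrophages, so that the smallest share of CXCR3 ligand transcripts was in CD103int DC and the largest in macrophages. Levels can be compared between genes only per length. Per kilobase of the longest transcript, the leading gene was Cxcl2 in CD103int DC (123 CPM per kilobase), Cxcl16 in cDC1 (32.5) and in cDC2 (173), and Cxcl10 in macrophages (447). The merged length of all exons, tried after seeing the values, gave the same leading gene in each library.

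Of 10 other CXC ligand genes looked for, Cxcl1, Cxcl3, Ppbp and Pf4 were measured, and none reached 10 CPM. Cxcl1 and Cxcl3 encode CXCR2 ligands beside CXCL2. Cxcl3 stood at 4.45 CPM in CD103int DC, 0 in cDC1, 2.67 in cDC2 and 2.44 in macrophages, and Cxcl1 at 1.13, 0, 0.474 and 1.04 CPM. Both were highest in CD103int DC, as Cxcl2 was, although the counting intervals of Cxcl1 in CD103int DC (0.874 to 1.44) and macrophages (0.791 to 1.35) overlapped. Cxcl2 made up at least 97.6% of the CPM of Cxcl1, Cxcl2 and Cxcl3 together in every library, uncorrected for length. The platelet chemokine genes Ppbp (0.836, 0, 0.216 and 0.678 CPM) and Pf4 (3.61, 0, 4.81 and 2.29 CPM) were also at 0 in cDC1. Thus 5 of the 9 measured CXC ligand genes were listed at 0 there, of which only Cxcl11 reached 10 CPM in any library. The share over all genes in the table, 3.25%, is not a like background, since it includes genes at high levels. The cDC1 library listed 454 genes at 0, against 10 in CD103int DC, 19 in cDC2 and 20 in macrophages.

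Receptor genes were mostly low. Of 8 receptor genes looked for, 4 were measured. Cxcr4, the receptor of CXCL12, stood at 217 CPM in CD103int DC, 104 in cDC1, 372 in cDC2 and 679 in macrophages, with cDC1 lowest as for the ligands. Cxcr3, the receptor of CXCL9, CXCL10 and CXCL11, was highest in cDC1, where its ligands were lowest, with 1.43 (1.14 to 1.77) CPM in CD103int DC, 11.0 (10.1 to 12.0) in cDC1, 1.03 (0.763 to 1.37) in cDC2 and 1.65 (1.33 to 2.03) in macrophages. The 6 NK cell markers summed to 14.7 CPM in CD103int DC, 78.3 in cDC1, 27.4 in cDC2 and 14.8 in macrophages. By single gene, 3 of the 6 were highest in cDC1, 2 in cDC2 and 1 in macrophages, and Klrb1c was listed at 0 in cDC1. Of the cDC1 sum, Klrd1 alone gave 67.3 CPM, and the other 5 markers summed to 0.853 CPM in CD103int DC, 11.0 in cDC1, 11.7 in cDC2 and 3.61 in macrophages, a split made after the values were seen. The 4 measured plasmacytoid DC markers summed to 129 CPM in CD103int DC, 665 in cDC1, 165 in cDC2 and 254 in macrophages. Tcf4 alone gave 501 CPM of the cDC1 sum. Of the 4, 3 were highest in cDC1, while Bst2 was highest in macrophages (138 CPM, against 91.6 in cDC1). The 5 measured T cell markers summed to 0.801 CPM in CD103int DC, 12.0 in cDC1, 11.5 in cDC2 and 5.08 in macrophages. The part of such cells in the Cxcr3 level was not tested. Cxcr6, the receptor of CXCL16, stood at 0.679, 3.14, 1.83 and 1.47 CPM in CD103int DC, cDC1, cDC2 and macrophages, and Cxcr2, the receptor of CXCL2, at 2.26, 1.12, 1.70 and 1.25 CPM.

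Genes that release, hold or cut these chemokines were measured for 7 of 7. The sheddases of CXCL16 were lowest in cDC1: Adam10 stood at 143 CPM in CD103int DC, 84.9 in cDC1, 120 in cDC2 and 152 in macrophages, and Adam17 at 167, 96.6, 206 and 293 CPM. Adam17 was highest in macrophages, whereas the peak of Adam10 turned to CD103int DC with equal totals and without ribosomal and mitochondrial entries. Dpp4, a peptidase that trims and so weakens CXCL9, CXCL10 and CXCL11, was highest in cDC1, where these ligands were lowest, with 38.6 CPM in CD103int DC, 119 in cDC1, 35.2 in cDC2 and 51.7 in macrophages. Sdc4, a heparan sulphate proteoglycan that can bind CXCL10, stood at 359, 113, 449 and 541 CPM in CD103int DC, cDC1, cDC2 and macrophages. Mmp12, an elastase that can inactivate CXCR2 ligands, had 1447 CPM in CD103int DC, 225 in cDC1, 1250 in cDC2 and 168 in macrophages. It thus shared with Cxcl2 a peak in CD103int DC, but not its macrophage level. Mmp8 and Mmp9, which cut CXC chemokines, were low, with 4.08, 2.04, 4.85 and 11.9 CPM and 1.41, 1.43, 3.19 and 0.788 CPM in the same order.

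The upstream and co-induced genes came from lists of interferon gamma, type I interferon and NF-κB genes. Of 18 measured interferon gamma genes, 15 were highest in macrophages and 14 lowest in cDC1, where 38.3% and 38.7% of all 8724 genes were. With equal totals these counts were 14 and 12, and the shares over all genes were not computed in that setting. Ifngr1, a chain of the interferon gamma receptor, stood at 149, 137, 173 and 258 CPM in CD103int DC, cDC1, cDC2 and macrophages. Irf1, a transcription factor induced by interferon gamma, stood at 189, 128, 235 and 384 CPM. These levels varied less over the libraries than those of Cxcl9 and Cxcl10. Gbp4, a guanylate-binding protein gene, stood at 69.1, 13.6, 96.4 and 147 CPM, and Nos2, which makes nitric oxide, at 26.6, 2.08, 41.4 and 19.6 CPM, highest in cDC2 as Cxcl9 was.

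Against cDC1, 6 of these 18 genes were called higher and 1 lower in CD103int DC, with a median of 0.49. Over all genes tested, 9.16% were called higher and 5.46% lower. Without ribosomal and mitochondrial entries, 4 of the 18 were higher and 1 lower (median 0.29), where 603 of all genes were higher and 687 lower. Against cDC2, 0 were called, with a median of -0.34, where 2.23% of all genes were called. Against macrophages, 0 were higher and 12 lower in CD103int DC, with a median of -1.07. Over all genes, 4.35% were called higher and 8.31% lower. With equal totals, 0 of the 18 were higher and 6 lower, with a median of -0.81, where 647 of all genes were higher and 401 lower. In the authors' scaling, the medians over all genes tested were 0.03, 0.02 and -0.07 in these 3 comparisons.

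Type I interferon genes had 16 of 18 members highest in macrophages and 11 lowest in cDC1, beside 38.3% and 38.7% of all 8724 genes. Without ribosomal and mitochondrial entries these counts were 14 and 8, with no share over all genes computed. Rsad2, which encodes the antiviral protein viperin, stood at 123 CPM in CD103int DC, 73.9 in cDC1, 174 in cDC2 and 1184 in macrophages. Cmpk2, its neighbour in the genome and a nucleotide kinase, stood at 62.0, 28.4, 90.2 and 396 CPM. Both had the order of Cxcl10, with macrophages far above the rest. CD103int DC had 2 of 18 called higher than in cDC1 (median 0.18, or 1 higher and 1 lower with a median of -0.02 without ribosomal and mitochondrial entries), 0 called against cDC2 (median -0.51) and 13 called lower than in macrophages (median -2.08). In the authors' scaling, the shares over all genes were again 9.16% higher and 5.46% lower against cDC1, 2.23% called against cDC2 and 8.31% lower against macrophages. Monocyte markers moved with these genes, with sums of 1243 CPM in CD103int DC, 1348 in cDC1, 1290 in cDC2 and 4941 in macrophages, and their part in the macrophage level of Cxcl10 was not tested.

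NF-κB and inflammatory genes had 16 of 19 members highest in macrophages and 16 lowest in cDC1, beside 38.3% and 38.7% of all 8724 genes. With equal totals these counts were 13 and 15, with no share over all genes computed. Tnf stood at 47.2 CPM in CD103int DC, 5.61 in cDC1, 54.3 in cDC2 and 77.3 in macrophages, and Il1b, the gene of interleukin-1 beta, at 735, 232, 946 and 2495 CPM. Il1rn, the interleukin-1 receptor antagonist gene, stood at 236, 17.9, 341 and 592 CPM, and Nfkbia, the inhibitor that NF-κB itself induces, at 271, 97.5, 219 and 430 CPM. Like Cxcl2, all 4 were lowest in cDC1, and they peaked in macrophages. Zfp36, which encodes an mRNA-destabilising protein and is named here after its values were seen, was the 1 list gene highest in CD103int DC (1 of 2 with equal totals), with 1083 CPM there, 592 in cDC1, 1043 in cDC2 and 1055 in macrophages. In CD103int DC, 9 of the 17 list genes that reached 10 CPM were called higher and 1 lower than in cDC1 (median 1.25). Against cDC2 0 were called (median -0.20), and 7 were called lower than in macrophages (median -0.89), beside the same shares of all genes. With equal totals, 4 were called lower than in macrophages, where 647 of all genes were called higher and 401 lower. Of 8 neutrophil markers looked for, Csf3r and Mmp8 were measured. They summed to 37.2 CPM in CD103int DC, 10.9 in cDC1, 67.1 in cDC2 and 169 in macrophages. Csf3r alone gave 157 CPM in macrophages, and the part of neutrophils in the Cxcl2 level was not tested.

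**Figure D5:**
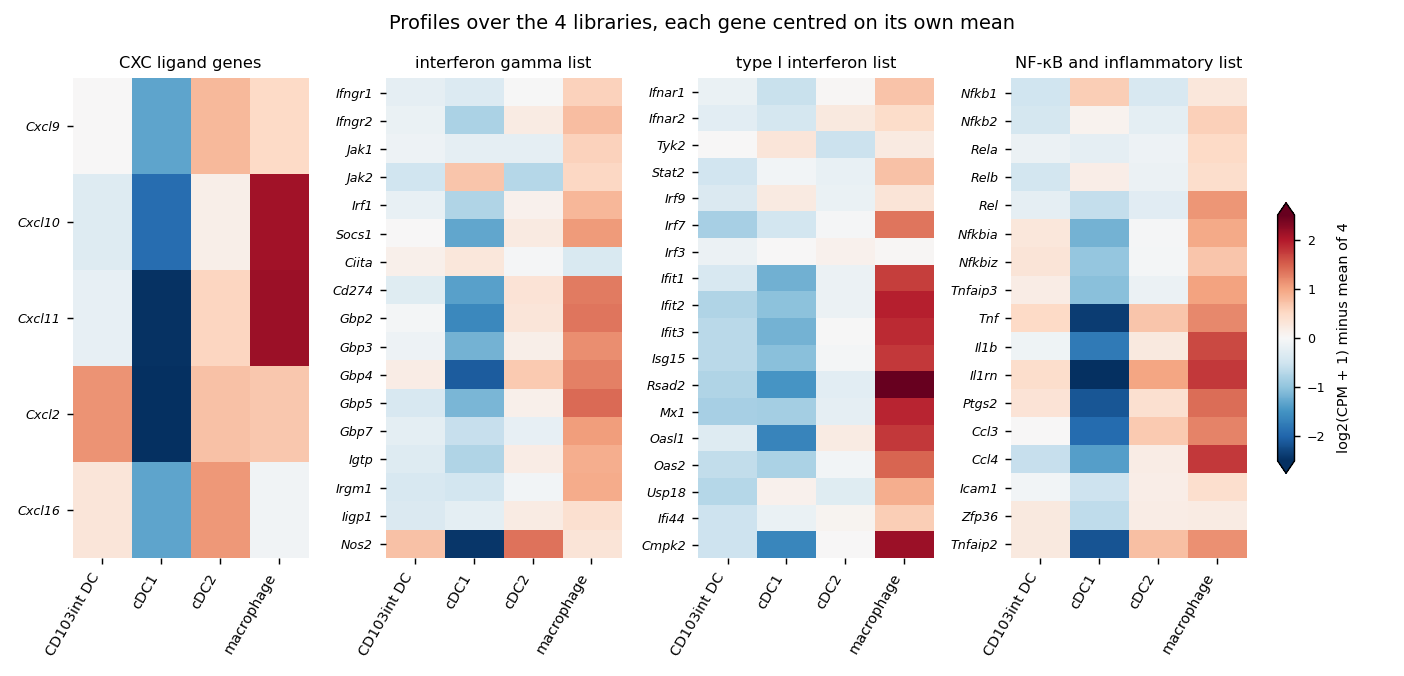
Profile of each ligand gene and of the interferon gamma, type I interferon and NF-κB genes that reached 10 CPM and are reported here, as log2(CPM + 1) minus the gene's mean over the 4 libraries (red above, blue below, colours capped at 2.5 either way). The macrophage column is the reddest for most list genes, as for Cxcl10 and Cxcl11, whereas Cxcl9 and Cxcl16 are reddest in cDC2 and Cxcl2 in CD103int DC.

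Likeness of profile was described by the root mean square distance between centred log2(CPM + 1) values over the 4 libraries, among 8724 genes. Closest to Cxcl9 were Aif1 (0.07), Mmp14 (0.10) and Il18bp (0.11), of which Il18bp encodes the interleukin-18 binding protein, itself inducible by interferon gamma. Closest to Cxcl10 were Apoc2 (0.11), Cmpk2 (0.19) and Lhx2 (0.19), of which Apoc2 and Lhx2 were listed at 0 in cDC1. Closest to Cxcl11 were Zfyve9 (0.11), Gad1-ps (0.14) and Id3 (0.16), of which Gad1-ps and Id3 were listed at 0 in cDC1, as Cxcl11 was. Distances of genes listed at 0, that between Cxcl10 and Cxcl11 among them, depend on the 1 CPM added before the logarithm. Closest to Cxcl2 were the matrix protein gene Ecm1 (0.14), the iron exporter gene Slc40a1 (0.14) and the lipid hydrolase gene Pla2g7 (0.21). Closest to Cxcl16 were the complement protease gene C1ra (0.06), the cholesterol hydroxylase gene Ch25h (0.09) and Loxl3 (0.10). With 4 points per profile, many genes lie near any of them.

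Among themselves the ligand genes formed no single profile. Cxcl10 and Cxcl11 were 0.35 apart, where Cxcl11 ranked 41 by closeness to Cxcl10 and Cxcl10 ranked 23 by closeness to Cxcl11. Cxcl9 and Cxcl16 were 0.36 apart, and Cxcl16 ranked 225 by closeness to Cxcl9 and Cxcl9 ranked 71 by closeness to Cxcl16. Cxcl9 and Cxcl10, which lie near each other on chromosome 5 and share a receptor, were 0.93 apart, and Cxcl10 ranked 5951 among the 8724 genes by closeness to Cxcl9, while Cxcl9 ranked 672 by closeness to Cxcl10.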

How the data were processed

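RNA was extracted with a column kit, treated with DNase I and made into directional libraries, per the labels' protocols. The authors deposited 1 table of expression signal for 13976 genes, which its name calls CPM with TMM (trimmed mean of M values) scaling after a filter, per the deposited table's name. For the filter rule, aligner, counter, strand setting and build, the sources used here give nothing, and the lowest maximum of any gene was 0.496 CPM. All 13976 identifiers matched GENCODE mouse release 21 (GRCm38), which gave coordinates and lengths. Columns were matched to populations by name, and 0 columns belonged to other samples. Because the values were not counts and each population had 1 library, no count model or other test was run.

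Depth was read from the values: between 70.6% and 79.0% of values in a column were whole multiples of a step (tolerance 0.001 of a step) taken as 1 read, as were 10 of the 20 ligand values, and all values were multiples of a hundredth of it. A level of 10 CPM then stood for 464 to 574 estimated reads, with a counting error of 4.17% to 4.64%. Intervals are 95% exact Poisson intervals for levels and exact binomial (Clopper-Pearson) intervals for ratios on estimated reads. They cover counting error only, since amplified reads are not independent molecules. Where a gene was listed at 0, no fold is given.

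Pairs of libraries were compared on log2(CPM + 1), with a call at 2-fold and at least 10 CPM in the higher library. The step finder, call rule and interval were tested on simulated data. Named genes were the 5 ligand genes, the other CXC ligand, receptor and processing genes in full, the 2 genes with the largest range of each pathway list plus Ifngr1, Irf1, Tnf, Il1b and Nfkbia, and the 3 nearest profiles of each ligand gene. A further gene of that rule is not reported here. Genes and lists were chosen with earlier results of these data known. Medians of pathway lists are over genes that reached 10 CPM in the pair, and those of the 5 ligand genes are over all 5. Other marker lists were also summed, in the order CD103int DC, cDC1, cDC2 and macrophages. Endothelial markers stood at 111, 478, 174 and 305 CPM and epithelial markers at 199.8, 425, 120 and 89.9 CPM. Fibroblast markers stood at 10.7, 10.1, 43.7 and 20.1 CPM and B cell markers at 1.43, 2.77, 3.26 and 3.68 CPM. Kdr alone gave 425 CPM of the endothelial sum in cDC1, and Cdh1 alone 416 CPM of the epithelial sum there. Of 4 measured endothelial markers, 2 were highest in cDC1, 1 in CD103int DC and 1 in macrophages. The 3 measured epithelial markers were all highest in cDC1. Alternatives were another scaling between columns, pseudocounts of 0.1 and 5, no minimum and a 4-fold threshold. Python 3.11.15, pandas 2.3.3, numpy 2.4.6, scipy 1.17.1 and matplotlib 3.10.9 were used.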

Additional observations from a re-analysis of the deposited data

How the results depend on the processing

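Each of the 30 differences of a ligand gene between a pair of libraries was recomputed under 5 alternatives (equal column totals, median-of-ratios scaling, equal totals without ribosomal and mitochondrial entries, and pseudocounts of 0.1 and 5). Of these 150 values, 0 changed sign. A counting interval exists for 135, of which 80 stayed within it and 55 did not, and none for the 15 values of Cxcl11 in the 3 pairs with cDC1, where it is listed at 0. The 2-fold call was lost for 2 and gained for 0, the lost ones being Cxcl16 in cDC1 against macrophages with equal totals (-0.87) and without ribosomal and mitochondrial entries (-0.80). A 4-fold threshold left 1 called ligand gene of 4 for CD103int DC against cDC1, 3 of 5 for cDC1 against macrophages and 0 of 3 for cDC2 against macrophages, since the threshold itself is higher. Over all genes it called 390, 17, 177, 502, 690 and 66 in place of 1234, 181, 1045, 1424, 2119 and 634, for CD103int DC against cDC1, cDC2 and macrophages, cDC1 against cDC2 and macrophages, and cDC2 against macrophages. Equal totals moved the median of all genes by -0.11 for CD103int DC against cDC1, 0.27 for CD103int DC and 0.38 for cDC1 against macrophages, and 0.28 for cDC2 against macrophages. Without ribosomal and mitochondrial entries these shifts were -0.21, 0.24, 0.46 and 0.26, with 0.19 for cDC1 against cDC2, and calls over all genes were 592 higher and 426 lower for CD103int DC and 325 and 237 for cDC2 against macrophages. With no minimum level, calls over all genes increased to 1303 higher and 876 lower for CD103int DC against cDC1, 247 and 125 for CD103int DC against cDC2, 1042 and 1376 for cDC1 against cDC2, and 1473 and 1849 for cDC1 against macrophages. Cxcl11 was then also called for CD103int DC against cDC1 and for cDC1 against cDC2, which gave 5 ligand calls in each. A pseudocount of 5 gave 66 and 32 for CD103int DC against cDC2 in place of 127 and 54. Adding 1 CPM to both genes moved no ratio of Cxcl9 to Cxcl10 or of Cxcl16 to Cxcl2 beyond its counting interval. No paired analysis was possible because each population had 1 library and the labels give no replicate numbers. No replicate could be left out for the same reason.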
